A study of Homo sapiens with 7 samples.

Results

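The receptors for lysophosphatidic acid (LPA) were followed in H1 cells, an established line of human embryonic stem cells, across 7 culture media. The members were the 6 probes that the platform annotation assigns to LPAR1 (2 probes) and to LPAR2, LPAR3, LPAR4 and LPAR6 (1 probe each), out of 33866 probes on the array. They stand for 5 of the 12851 genes that have a named probe. The media were E8 with 1.6% AlbuMAX (AlbuMAX), E8 with 1 μM LPA and 1% albumin (LPA + Albumin), E8 with 1 μM LPA of the 18:1 species (LPA), E8 with 1% albumin (Albumin), E8 with 1% CDL (a chemically defined lipid concentrate), E8 with hCDL (a homemade lipid mixture) and plain E8. The labels give the hCDL amount as 0.1x in one place and as 0.01% in another. All cells grew on matrigel, received 5 μM of the ROCK inhibitor Y27632 for the first 24 hours after passage, and were collected after 2 days in their medium. Cells of each medium were measured on a single Illumina bead array, and none of the media was repeated. AlbuMAX is a lipid-rich bovine albumin, and the labels do not say whether it carries LPA. The comparisons ask which receptors the cells express and whether any of them was lower where LPA was given.

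LPA is a small phospholipid that signals through G protein-coupled receptors at the cell surface. LPAR1, LPAR2 and LPAR3 belong to the same receptor family as the receptors for sphingosine 1-phosphate, whereas LPAR4 and LPAR6 are closer to the purinergic P2Y receptors. Through the G proteins they engage, these receptors can activate phospholipase C and calcium release or ERK signalling, and many G protein-coupled receptors are withdrawn from the surface or made less after prolonged exposure to their ligand.

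Between 34.6% (E8) and 37.3% (hCDL) of the probes lay above background on an array, where above background means a deposited detection p-value under 0.01. The stem cell markers POU5F1, NANOG and LIN28A were above background on all 7 arrays, and none of them passed the test for LPA described below. Their summed linear intensity was 12619 and 13192 on the 2 LPA arrays and 11961 on the AlbuMAX array, against 13491 to 14195 on the 4 arrays of Albumin, CDL, hCDL and E8. POU5F1 (log2 10.37 in AlbuMAX and 10.29 in LPA + Albumin) and NANOG (10.07 and 9.98) were lowest on the same arrays as LPAR4. LIN28A, which carries most of the summed intensity, was lowest in AlbuMAX (13.22). Its 13.34 in LPA + Albumin lay above LPA (13.31) and CDL (13.32). The part of these markers in the LPAR4 values was not tested. Of 14 other named markers, 7 were above background on no array, among them the fibroblast genes LUM and DCN, PAX6, GATA6, HAND1, CDH5 and CD34. The other fibroblast and mesenchyme markers, THY1 and PDGFRB, were above background on all 7 arrays. Neither passed, with LPA effects of -0.02 (limma adjusted p = 0.929) for THY1 and 0.79 (limma adjusted p = 0.0601) for PDGFRB. PDGFRB was 7.88 in LPA + Albumin, 6.91 in LPA and 7.34 in AlbuMAX, against 6.43 to 6.70 on the other 4 arrays. Markers among the 14 that were above background on all 7 arrays were THY1, PDGFRB, NES, TUBB3 and AFP. Of these, 3 rose with LPA, as did 6.64% of all genes tested. On the log2 scale the yolk sac and liver gene AFP rose by 2.36 (SE 0.231, limma adjusted p = 1.00e-04). The progenitor filament gene NES rose by 1.60 (SE 0.118, limma adjusted p = 1.85e-05) and the neuronal tubulin TUBB3 by 0.50 (SE 0.0923, limma adjusted p = 0.00688). When 1 array was left out the TUBB3 effect ran from 0.36 to 0.63. Its call was lost without an intensity trend in the fit (limma adjusted p = 0.122). The summed linear intensity of the 3 neural markers was 7012 and 8368 on the 2 LPA arrays, 7037 on the AlbuMAX array, and 3982 to 4546 on the 4 arrays of Albumin, CDL, hCDL and E8. For the 3 endoderm markers the sums were 474 and 475 on the LPA arrays, 623 on the AlbuMAX array, and 110.1 to 161 on the other 4. AFP carries that sum, since GATA6 was above background on no array and FOXA2 on the Albumin array alone. The part of these genes in the receptor values was not tested. In such bulk RNA, fewer expressing cells and less RNA per cell cannot be told apart.

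H1 cells gave signal for 4 of the 5 receptors in every medium. LPAR1, LPAR2, LPAR3 and LPAR4 each had a probe above background on all 7 arrays, with a detection p-value of 0 throughout. Their signals were modest. The deposited intensity ran from 192 to 249 for LPAR1, from 229 to 378 for LPAR2, from 199.7 to 246 for LPAR3 and from 236 to 373 for LPAR4, while the lowest intensity counted as above background on an array was 124 to 129. Signals of different probes cannot be ranked against each other, so these values give no order of abundance among the receptors.

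LPAR1, the best studied of these receptors in neural and connective tissue, had 1 probe above background and 1 not. The normalized log2 intensity of the first was 6.84 in AlbuMAX, 6.79 in LPA + Albumin, 6.98 in LPA, 6.86 in Albumin, 6.74 in CDL, 7.20 in hCDL and 7.02 in E8. Its highest array was hCDL and its lowest CDL, and both LPA arrays lay inside the range of the arrays without LPA. The second probe was above background on no array, with detection p-values from 0.0701 (hCDL) to 0.69 (LPA + Albumin). It shares its reference transcript accession with the first in the annotation, so the probes disagree on whether the gene is expressed.

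LPAR2, which couples LPA to calcium release and survival signals, had normalized log2 intensities of 7.28 in AlbuMAX, 8.11 in LPA + Albumin, 7.57 in LPA, 7.93 in Albumin, 7.82 in CDL, 7.93 in hCDL and 7.71 in E8. The arrays with LPA held both its highest value and, after AlbuMAX, its next lowest.

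LPAR3, a receptor required for normal embryo implantation in mice, had 7.26 in AlbuMAX, 6.72 in LPA + Albumin, 6.89 in LPA, 7.20 in Albumin, 7.27 in CDL, 7.17 in hCDL and 7.23 in E8. The 5 arrays without added LPA lay within a narrow band and both LPA arrays below it.

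LPAR4, a receptor with roles in blood vessel formation in mice, had 7.35 in AlbuMAX, 7.24 in LPA + Albumin, 7.84 in LPA, 8.08 in Albumin, 7.87 in CDL, 7.85 in hCDL and 7.91 in E8. AlbuMAX and LPA + Albumin stood apart as the low arrays, and LPA alone lay just under the arrays of CDL, hCDL and E8.

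LPAR6, known in humans from inherited hair loss, was near or below background. Its probe passed the detection limit on the AlbuMAX array alone, with a detection p-value of 0.00779. On the other arrays the detection p-value was 0.105 in LPA + Albumin, 0.0455 in LPA, 0.222 in Albumin, 0.0156 in CDL, 0.161 in hCDL and 0.173 in E8. The AlbuMAX intensity of 125 sat at the lowest intensity counted as above background on that array (124), so LPAR6 was not detectable beyond that limit, and no fold is given between media. It passed the filter on dim probes through AlbuMAX alone, and no LPA effect is given for it because AlbuMAX was not in that model. RB1, the gene within which LPAR6 lies, has no named probe here.

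**Figure D1:**
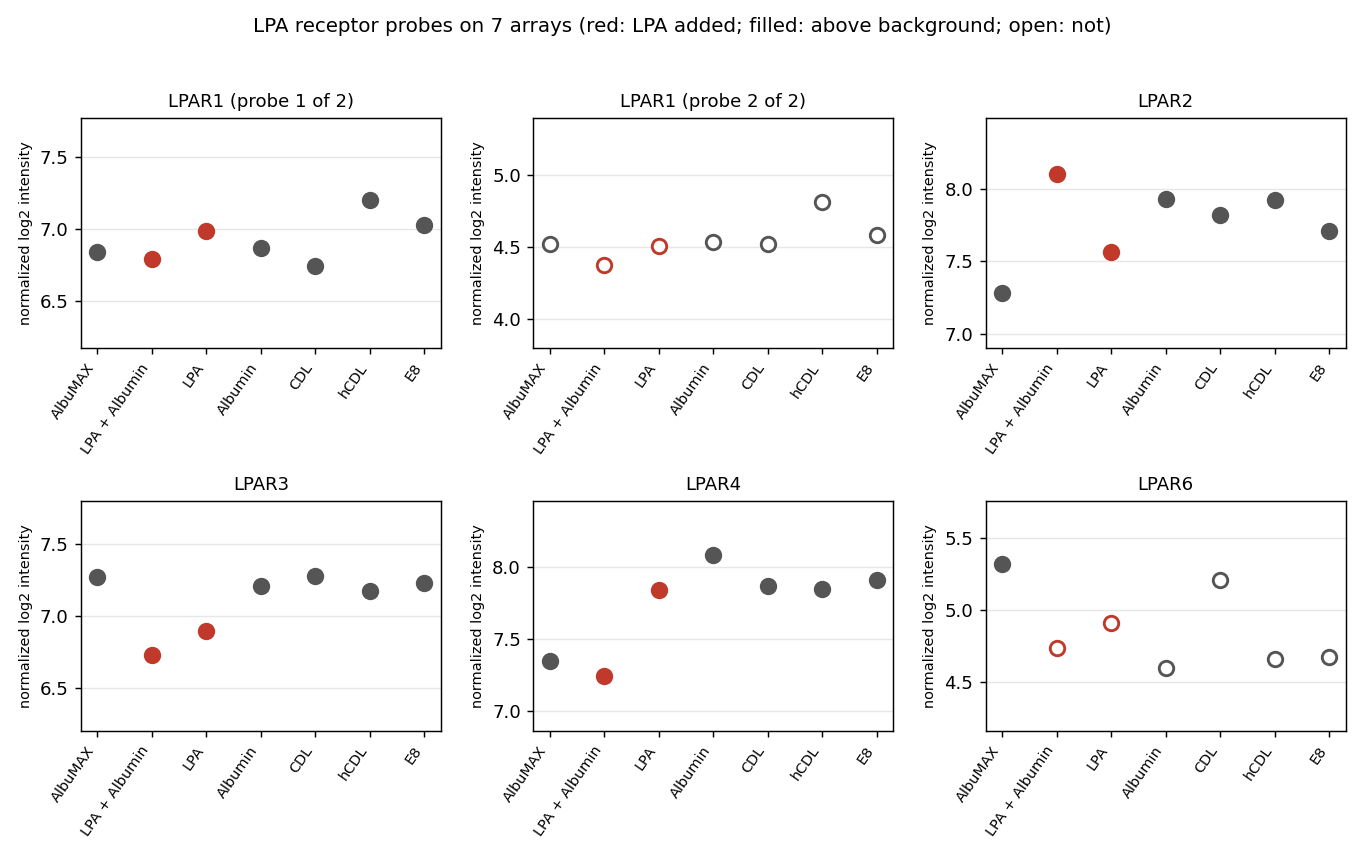
Normalized log2 intensity (vertical axis, each panel spanning the same range) of the 6 LPA receptor probes on the 7 arrays, 1 point per medium, red where LPA was added, filled where the probe was above background and open where it was not. LPAR3 is lower on both LPA arrays, LPAR4 is low in AlbuMAX and LPA + Albumin, and LPAR6 is above background in AlbuMAX alone.

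The promoter windows of the genes differ in base content. They are shown as a description, and their part in the receptor values was not tested. RefSeq (GRCh38.p14) places LPAR3 at chr1:84811602-84893206, LPAR1 at chr9:110873263-111038998, LPAR6 at chr13:48389571-48444669, LPAR2 at chr19:19623655-19628220 and LPAR4 at chrX:78747720-78758714. For the 4 genes with 1 start in the promoter table, the 250 bases before that start are printed 5′ to 3′ on the strand of the gene, with capitals marking every match on either strand to 3 words. The first is the GC box, searched as GGGCGG. A second word, known as the CAAT box, was searched as CCAAT. The last was TATAAA, the core of many TATA boxes. The windows lie at chr19:19628221-19628470 on the minus strand for LPAR2, chr1:84893207-84893456 on the minus strand for LPAR3, chrX:78747470-78747719 on the plus strand for LPAR4 and chr13:48413114-48413363 on the minus strand for LPAR6. The LPAR6 window lies inside the gene as RefSeq places it, unlike the other 3, which adjoin the start of the gene on its own strand.
LPAR2: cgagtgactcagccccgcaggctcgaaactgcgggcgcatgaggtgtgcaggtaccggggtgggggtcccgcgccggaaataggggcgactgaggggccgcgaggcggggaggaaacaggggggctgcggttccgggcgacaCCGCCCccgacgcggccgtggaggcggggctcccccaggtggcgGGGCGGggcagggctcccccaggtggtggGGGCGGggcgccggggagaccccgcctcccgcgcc
LPAR3: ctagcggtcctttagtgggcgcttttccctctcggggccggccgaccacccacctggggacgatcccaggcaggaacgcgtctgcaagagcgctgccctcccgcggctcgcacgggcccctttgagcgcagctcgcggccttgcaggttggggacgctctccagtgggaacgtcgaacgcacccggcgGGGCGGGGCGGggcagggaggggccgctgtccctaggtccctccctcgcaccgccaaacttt
LPAR4: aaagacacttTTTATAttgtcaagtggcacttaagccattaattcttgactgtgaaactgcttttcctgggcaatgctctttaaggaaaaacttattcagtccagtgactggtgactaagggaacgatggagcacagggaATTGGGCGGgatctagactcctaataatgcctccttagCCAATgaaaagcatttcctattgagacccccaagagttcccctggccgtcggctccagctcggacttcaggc
LPAR6: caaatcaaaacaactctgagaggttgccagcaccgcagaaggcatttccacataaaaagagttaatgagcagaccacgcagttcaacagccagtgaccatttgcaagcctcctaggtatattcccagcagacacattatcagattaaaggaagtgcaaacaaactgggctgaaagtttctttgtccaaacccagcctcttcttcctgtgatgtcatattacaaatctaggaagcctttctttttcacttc

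The windows of LPAR2 and LPAR3 were rich in G and C, at 78.4% and 71.2%, with 30 and 27 CpG dinucleotides. The median of all 34943 promoter windows in the table was 58% and 11 CpG. LPAR4 and LPAR6 had 46.4% and 42.8% G and C, with 5 and 2 CpG. LPAR2 held 3 matches to GGGCGG and LPAR3 held 2, which overlap each other, and 42.5% of all windows held at least 1. LPAR4 held 2 matches to CCAAT (in 32% of all windows), 1 to GGGCGG that overlaps one of them, and 1 to TATAAA (in 10.8%), while LPAR6 held none of these words. LPAR1 has 6 starts in the table, whose windows ran from 36.4% to 84.4% G and C. Which start H1 cells use was not measured. A match is a description of these letters and not a site.

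The comparison of media with and without LPA showed lower values for LPAR3 and LPAR4 that did not pass the test, and values close to 0 for LPAR1 and LPAR2. It was made with limma across 7982 genes on 6 arrays, in a model that adds the effects of LPA, albumin and a lipid mixture. AlbuMAX was left out of it. The LPA effect is the mean of LPA + Albumin minus Albumin and LPA minus E8, and its error comes from the 2 residual degrees of freedom (how far the LPA difference changed with albumin, and how far CDL and hCDL lay apart) together with a variance prior shared over genes. The p-values therefore rest on how well additive effects describe the arrays, with no repeat of any medium behind them. At an adjusted p under 0.05, 11% of the genes passed for LPA, 6.64% rising and 4.32% falling. That is 530 rising and 345 falling, against 597 and 240 with cyclic loess and 507 and 215 with arrays centred on their median. None of the 4 receptors above background passed.

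LPAR3 averaged 6.81 on the 2 arrays with LPA and 7.22 on the 4 arrays without. Its LPA effect was -0.41 on the log2 scale (SE 0.157, 95% interval -0.75 to -0.06, limma adjusted p = 0.127), or 1.33-fold lower. LPA + Albumin minus Albumin was -0.48 and LPA minus E8 was -0.33. Both LPA arrays were below all 4 arrays without LPA, with a gap of 0.28 between the groups. That ordering was seen in 20.9% of the 7982 genes, and the LPAR3 effect sat at percentile 9.05 of all effects. The sign was negative under all 19 alternatives run for it. Those alternatives reuse the same arrays, and leaving out 1 array returns either of these differences or their mean. With LPA as the only term of the model, a setting chosen after the data were seen, it passed (-0.41, limma adjusted p = 0.0488).

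LPAR4 averaged 7.54 on the 2 arrays with LPA and 7.93 on the 4 without. Its LPA effect was -0.45 (SE 0.176, 95% interval -0.84 to -0.07, limma adjusted p = 0.129), or 1.37-fold lower, at percentile 7.09 of all effects. The 2 differences behind it were unlike in size. LPA + Albumin minus Albumin was -0.84 (1.79-fold lower), at percentile 2.55 of 7492 genes, of which 7.41% were at least 1.5-fold lower. LPA minus E8 was -0.07, at percentile 42.4 of 7197 genes. Without background correction the 2 differences were -0.58 and -0.05. Both LPA arrays again lay below all 4 arrays without LPA, but by a gap of only 0.0078. With arrays centred on their median LPA minus E8 was 0.0047, so that ordering did not hold there.

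Single arrays decided the LPAR4 value. Without the LPA array, or without the E8 array, the effect is LPA + Albumin minus Albumin alone (-0.84). Without the LPA + Albumin array, or without the Albumin array, it is LPA minus E8 alone (-0.07). These fits have 1 array on each side of the LPA difference. They keep 1 residual degree of freedom, CDL against hCDL, so no p-value or call is given for them, for LPAR4 or any other gene. The change of the LPA difference with albumin was -0.77, at percentile 1.32 among 6309 genes above background on all 6 arrays. It was not tested: in the model used it is part of the error, and a model with a term for it also keeps 1 residual degree of freedom and gave an unstable rate of false calls on simulated data.

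LPAR1 and LPAR2 had LPA effects of -0.05 (SE 0.188, 95% interval -0.47 to 0.36, limma adjusted p = 0.887) and 0.02 (SE 0.141, 95% interval -0.29 to 0.33, limma adjusted p = 0.955). As folds these intervals reach from 0.723 to 1.28 for LPAR1 and from 0.816 to 1.25 for LPAR2. For LPAR2 the differences had opposite signs, at 0.18 for LPA + Albumin minus Albumin and -0.14 for LPA minus E8. The smallest change that would have passed was 1.57-fold for LPAR1, 1.40-fold for LPAR2, 1.46-fold for LPAR3 and 1.52-fold for LPAR4 in this model with its variance prior.

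**Figure D2:**
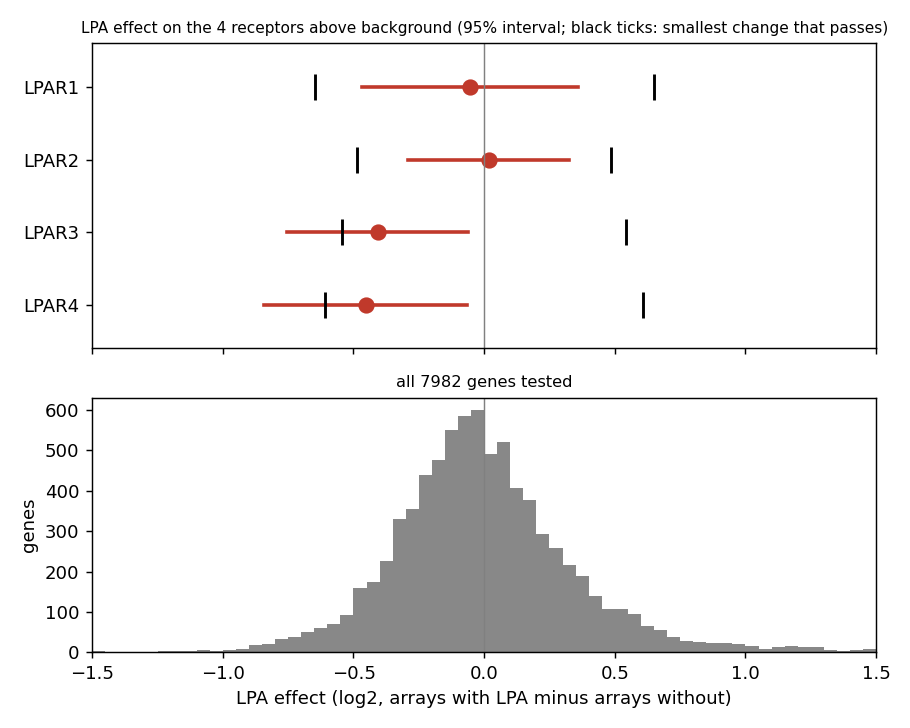
Upper panel, LPA effect (log2, arrays with LPA minus arrays without, from the additive limma model on 6 arrays) for the 4 receptors above background, with 95% intervals and black ticks at the smallest change that passes an adjusted p of 0.05. Lower panel, the same effect for 7982 genes, of which 88 lie outside the axis; LPAR3 (-0.41) and LPAR4 (-0.45) lie in the lower flank and do not reach their ticks.

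**Figure D3:**
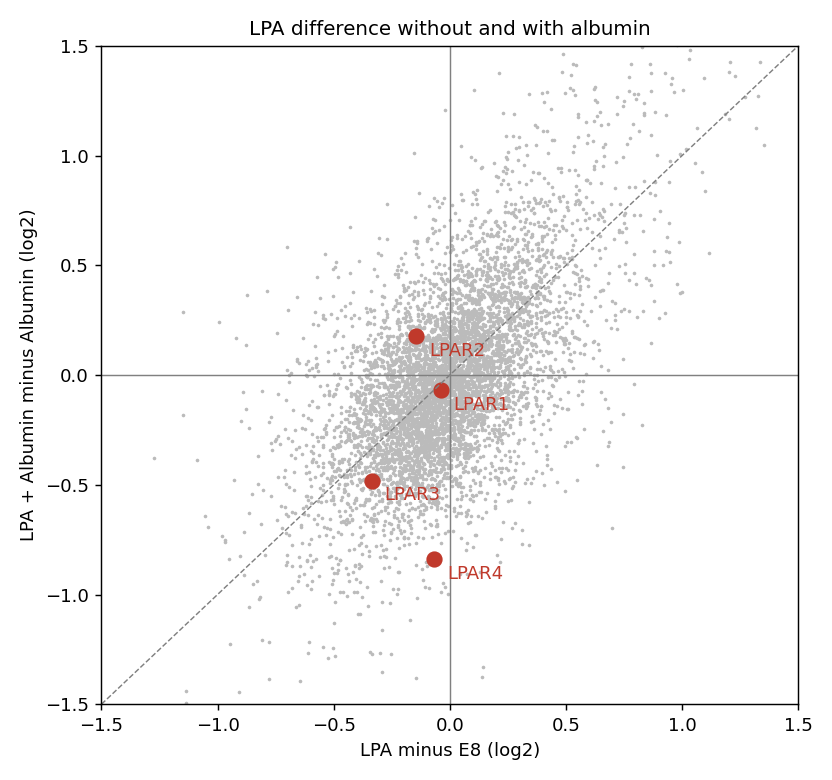
LPA + Albumin minus Albumin (vertical, log2) against LPA minus E8 (horizontal, log2) for 6309 genes above background on all 6 arrays in grey, of which 75 lie outside the axes, and for 4 receptors in red. LPAR3 is low in both differences, LPAR4 in the one with albumin, and the dashed line marks equal differences.

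AlbuMAX was set against the other media as single values with no test, since it has 1 array. LPAR4 was 1.48-fold lower in AlbuMAX than in E8 (-0.56) and 1.67-fold lower than in Albumin (-0.74), and its value of 7.35 in AlbuMAX was close to the 7.24 of LPA + Albumin. LPAR2 was lower in AlbuMAX than on all 6 other arrays, at 1.35-fold below E8 (-0.43) and 1.57-fold below Albumin (-0.65). The sizes depended on the background handling. Without background correction AlbuMAX minus Albumin was -0.52 for LPAR4 and -0.45 for LPAR2, both under 1.5-fold. Of all genes tested, 15.5% had their lowest array in AlbuMAX, and 6.44% of 7443 genes were at least 1.5-fold lower in AlbuMAX than in Albumin. LPAR3 stood at 0.04 above E8 in AlbuMAX. LPAR1 differed from E8 by -0.18. Thus LPAR4 was low in both AlbuMAX and LPA + Albumin, LPAR2 was low in AlbuMAX and high in LPA + Albumin, and LPAR3 was low in LPA + Albumin but not in AlbuMAX.

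Albumin and the lipid mixtures moved no receptor past the test. In the same model 0.1% of genes passed for albumin and 0 for a lipid mixture (limma, 301 at an unadjusted p under 0.05). LPAR2 had the largest albumin effect of the 4, at 0.38 (SE 0.141, limma adjusted p = 0.8, unadjusted p = 0.0206), with LPA + Albumin above LPA by 0.54 and Albumin above E8 by 0.22. LPAR4 had an albumin effect of -0.21 that joined opposite parts, -0.60 between LPA + Albumin and LPA and 0.18 between Albumin and E8. The lipid mixture effects ran from -0.24 for LPAR4 (-0.82 without E8, and -0.05 without LPA + Albumin, LPA or Albumin) to 0.24 for LPAR2 (0.49 without E8 and 0.16 without LPA + Albumin, LPA or Albumin), with limma adjusted p of 0.990 to 0.993.

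The 4 detected receptors did not share a profile over the media. Across the 7 arrays, which share no replicate, Pearson's r between pairs of receptors ran from -0.39 (LPAR2 and LPAR3) to 0.47 (LPAR3 and LPAR4). The range from the lowest to the highest array was 0.84 for LPAR4, 0.83 for LPAR2, 0.55 for LPAR3 and 0.46 for LPAR1. Genes above background on all 7 arrays and within 0.5 log2 of the same mean signal had median ranges of 0.50 for LPAR4, 0.49 for LPAR2, 0.57 for LPAR3 and 0.60 for LPAR1. LPAR2 and LPAR4 ranged more widely than 85.5% of genes of like signal in each case, LPAR3 than 46.4% and LPAR1 than 27.2%.

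The genes most like each receptor were taken as the 5 highest Pearson's r over the 7 arrays among 6262 genes above background on all of them. LPAR4 had 209 genes with r above 0.9, led by SYNDIG1 (0.98), SREK1, a splicing regulator (0.98), CAND1, an exchange factor of cullin ubiquitin ligases (0.98), SCAND3 (0.97) and VSIG10L (0.97). All 5 had their lowest array in AlbuMAX or LPA + Albumin and their highest in Albumin. LPAR3 had 33 such genes, led by C5orf34 (0.97), the Elongator subunit ELP6 (0.96), MAD2L1BP, which acts on the mitotic checkpoint (0.96), RPAIN (0.95) and RRN3, an initiation factor of RNA polymerase I (0.95), each lowest in LPA + Albumin. LPAR1 had 13, led by NCKAP1, a subunit of the actin-regulating WAVE complex (0.97), and FNIP1, NSFL1C, CDC40 and RO60 (0.93 to 0.96). LPAR2 had 4, CALB1 (0.92), TRAPPC2 (0.92), KATNBL1 (0.91) and COMMD9 (0.91), followed by FAM86JP (0.89). By Spearman's rho the genes of LPAR3 stood lower, from 0.36 (RRN3) to 0.75, and those of the other receptors ran from 0.71 to 1. With 7 points and 6262 genes such values describe these arrays and carry no p. The lowest and highest arrays that these genes share follow largely from choosing them by r. Under 5 other scalings, tried after the data were seen, r ran from 0.63 to 0.97 for the genes of LPAR3, 0.96 to 0.98 for LPAR4, 0.85 to 0.98 for LPAR1 and 0.89 to 0.96 for LPAR2.

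Around the receptors, the genes that act on LPA or carry its signal were mostly not called for LPA. Members were chosen by name, with earlier results of these data known, and the share of all genes called was the 11% given above. Of the other receptors proposed for LPA, P2RY10 and GPR35 were named on the array and neither was above background on any array. Of the 4 measured sphingosine 1-phosphate receptors, 0 passed. S1PR3 had an LPA effect of 0.61 (limma adjusted p = 0.0654), with 6.94 in LPA + Albumin, 6.71 in LPA and 5.91 to 6.24 on the 4 arrays without LPA, and S1PR4 had -0.52 (limma adjusted p = 0.138). Of 12 named purinergic and other relatives of LPAR4 and LPAR6, 4 were measured and 1 passed. P2RY1, an ADP receptor, fell by 0.53 (SE 0.134, limma adjusted p = 0.0279). Its values were 8.86 in LPA + Albumin and 9.45 in LPA, against 9.65 to 9.74 on the arrays without LPA, and 9.05 in AlbuMAX. A second P2RY1 probe gave -0.30 (limma adjusted p = 0.334, each probe fitted on its own).

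Among the G protein alpha subunits, which pass the receptor signal on, all 11 listed members were measured, 9 of them above background on all 7 arrays. Of the 11 listed, 3 rose, 0 fell and 8 did not pass. GNA14, a Gq class subunit, rose by 1.30 (SE 0.151, limma adjusted p = 0.000375), with 8.88 in LPA + Albumin and 8.51 in LPA against 7.28 to 7.63 on the arrays without LPA, and 8.76 in AlbuMAX. GNA12, a G12 class subunit, rose by 0.57 (SE 0.128, limma adjusted p = 0.0171) and GNA11 by 0.58 (SE 0.155, limma adjusted p = 0.0376). Another GNA12 probe, above background on 3 arrays, gave -0.12. The median effect of the 11 was -0.11, against -0.03 for all genes. These subunits serve many receptors besides those for LPA.

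The effects of P2RY1, GNA12 and GNA11 changed in size with single arrays, and their calls depended on the settings of the fit. When 1 array was left out, the effect ran from -0.83 to -0.24 for P2RY1, from 0.46 to 0.68 for GNA12 and from 0.47 to 0.69 for GNA11. No call is given for such fits, which keep 1 residual degree of freedom. Without an intensity trend in the variance prior the limma adjusted p was 0.172 for P2RY1, 0.0936 for GNA12 and 0.0841 for GNA11. Without the filter on dim probes it was 0.0619 for P2RY1 and 0.107 for GNA11. The GNA14 effect ran from 1.23 to 1.36 when 1 array was left out. With AlbuMAX added to the model as an albumin medium, no gene passed (limma, 1010 at an unadjusted p under 0.05).

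Of 3 measured phospholipase C beta genes and 3 measured receptor kinases, arrestins and RGS proteins, 0 passed. Among enzymes that make LPA, 4 of 7 named genes were measured and 0 passed. Among 12 measured genes listed under LPA breakdown and acylation, which include relatives of the enzymes, 1 relative rose and 0 genes fell. PLPPR4, a brain-enriched relative of the lipid phosphate phosphatases, rose by 1.56 (SE 0.227, limma adjusted p = 0.00156), with 6.48 in LPA + Albumin and 6.42 in LPA against 4.82 to 5.29 on the arrays without LPA, of which 1 was above background, and 6.57 in AlbuMAX. The size of this effect rests on the background handling, and it was 0.58 without background correction and 0.58 with the submitters' processed values, passing in both. The phosphatases PLPP1, PLPP2 and PLPP3, which remove LPA outside the cell, did not pass, at -0.16, -0.08 and -0.14 (limma adjusted p = 0.49, 0.75 and 0.419).

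**Figure D4:**
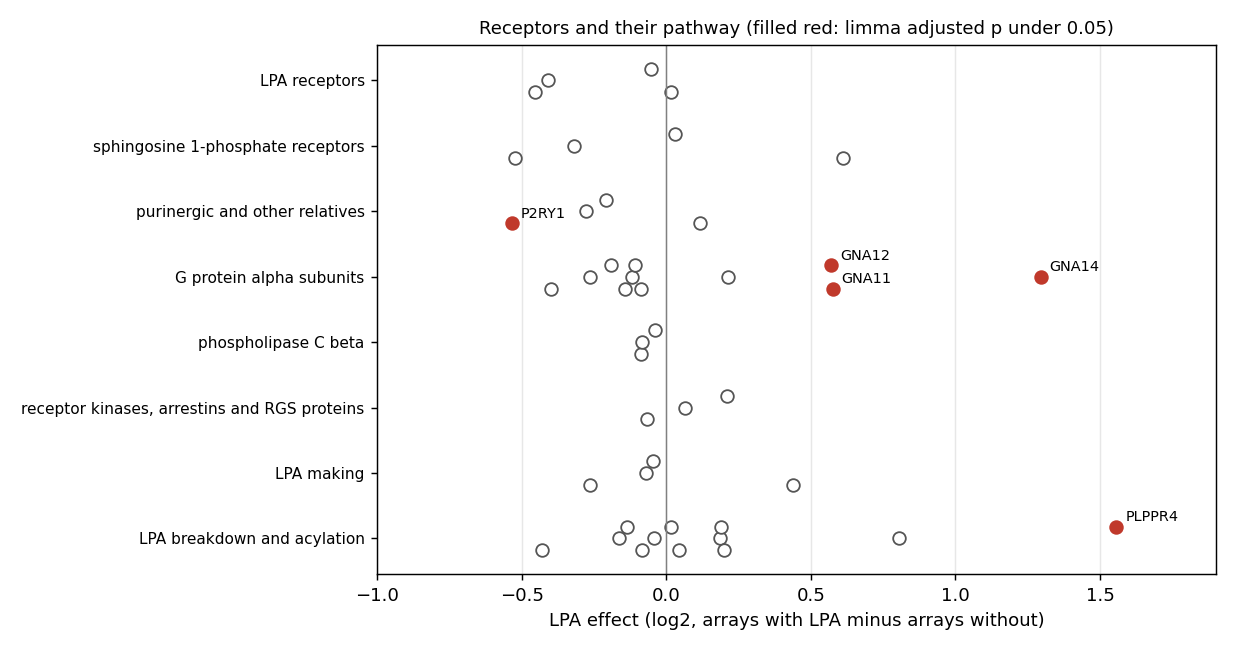
LPA effect (horizontal, log2, arrays with LPA minus arrays without) of the measured members of each list, 1 point per gene, with genes at a limma adjusted p under 0.05 in filled red and named. The 4 LPA receptors do not pass, 3 G protein subunits and PLPPR4 lie to the right, and P2RY1 lies to the left.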

How the data were processed

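RNA of H1 cells was measured on 7 Illumina bead arrays, 1 per medium, with groups taken from the labelled medium. Per the file headers, the first deposited table gives each of 33866 probes an intensity, not normalized, and a detection p-value. The deposited detection p-values are multiples of 1 in 770. A second deposited table gives the submitters' processed intensity values, linear and with medians of 112.4 to 112.5, and served as an alternative. The sources used here name no array software. Probes were named through the platform annotation: 19221 had 1 symbol, 3 several, and 14642 are unnamed here.

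Intensities were background-corrected by normexp from the detection p-values (offset 16), then quantile normalized with log2 taken (neqc, limma 3.58.1, R 4.3.3). A probe had to be above background on 1 array or more, and each gene was read from its brightest such probe, which left 7982 genes. The additive model used lmFit and eBayes with an intensity trend and Benjamini-Hochberg adjustment over all genes. The additive fit was tested on simulated data drawn from that same model. Such data could not test the background correction, scaling, filter or probe choice, nor how far the arrays depart from additive effects. The members and gene lists were chosen with earlier results of these data known. Genes were named by a rule: the receptors always, the 5 genes most like each detected receptor, and from each list those that passed or, failing that, up to 2 with the largest effects; for length, the phospholipase C, receptor kinase and LPA-making lists are given as counts. One further list is not reported here. PLPP1, PLPP2 and PLPP3, the markers and the second GNA12 probe were named after their values were seen. Alternatives changed the background correction, scaling, filter, probe rule, variance prior and arrays. Promoter windows are RefSeq's. With 1 array per medium, the number of arrays limits the precision.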

Additional observations from a re-analysis of the deposited data

Results flagged for a closer look

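LPAR2 differed in the direction of its LPA difference between media with and without albumin: LPA + Albumin minus Albumin was 0.18 and LPA minus E8 was -0.14, which are 0.32 apart. The difference was not tested, since a model with a term for it gave an unstable rate of false calls on simulated data, and 31.7% of the 7982 genes also had opposite signs.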

How the results depend on the processing

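LPAR1, LPAR3 and LPAR4 had a negative LPA effect in all 19 alternatives run for each. No call is given for the fits with 1 array left out. In the other alternatives LPAR1, LPAR2 and LPAR4 did not pass. All the alternatives reuse the same arrays. Leaving out 1 array returns either difference behind the effect or their mean, so it could not reverse a sign that both shared. The effect of LPAR2 was -0.0096 with LPA as the only term, a setting added after the data were seen, and ran from -0.14 to 0.18 when 1 array was left out. Over those leave-one-out fits LPAR1 ran from -0.07 to -0.04, LPAR3 from -0.48 to -0.33 and LPAR4 from -0.84 to -0.066. Over the other settings LPAR1 ran from -0.07 to -0.0014, and its single differences did not keep their sign. LPA minus E8 was 0.037 for LPAR1 with median centring, and LPA + Albumin minus Albumin was 0.012 with cyclic loess. For LPAR4, LPA minus E8 was 0.0047 with median centring, so the sign of that difference did not hold either. Apart from the fits with 1 array left out, LPAR3 passed with LPA as the only term (-0.41, limma adjusted p = 0.0488) and in no other alternative. Its effect was -0.24 without background correction and -0.24 with the submitters' processed values. The count of genes passing for LPA was 875, and it was 512 without a filter on dim probes, 162 without an intensity trend, 1336 with LPA as the only term, 0 with AlbuMAX added as an albumin medium (limma, 1010 at an unadjusted p under 0.05), and 151 to 919 when 1 array was left out. LPAR6 was above background on 3 arrays at a detection p-value under 0.05, against 1. The lipid mixture effect was 0.025 for LPAR1 and 0.041 for LPAR3 with median centring, from -0.29 to 0.17 for LPAR1 and from -0.15 to 0.0077 for LPAR3 when 1 array was left out, and the albumin effect of LPAR4 ran from -0.60 to 0.18. The mean of probes gave 0.22 for GNA12 (limma adjusted p = 0.401) and -0.42 for P2RY1 (limma adjusted p = 0.0816). No paired analysis was possible because each medium has 1 array. The receptors' signals lay within 3-fold of the detection limit, and the cause of these changes was not tested.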
